A study of Homo sapiens with 4 samples.

Results

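The tubulin isotypes described here are the 10 genes TUBA1A, TUBA1B, TUBA1C and TUBA4A, which encode alpha-tubulin, and TUBB, TUBB2A, TUBB2B, TUBB4A, TUBB4B and TUBB6, which encode beta-tubulin. They were picked out by symbol, and all 10 were found among the 30863 genes of the deposited expression table. HepG2, an established human liver cancer line that the labels give as hepatoblastoma and wild type (WT), received DMSO solvent alone or AMF and was collected at 48 h. The series title names amentoflavone, a plant biflavonoid. Each group had 2 poly(A)-selected libraries, with replicate numbers 1 and 2. Sources differ on the agent: 90 µM AMF stands in the treatment protocol and 80 µM of something abbreviated Tub B, not spelled out, in the text on design, so the compound and its dose are uncertain and AMF is used as in the sample titles. HepG2 is 1 cell line. No label says whether replicates were separate cultures, so each p-value rests on a spread between libraries that may be technical only.

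Microtubules are hollow polymers of heterodimers of alpha- and beta-tubulin. The isotypes have nearly the same core and differ mostly in an acidic tail at the carboxyl end, where motor proteins, microtubule-associated proteins and modifying enzymes bind. TUBB, TUBB4B, TUBA1B and TUBA1C are the widely expressed isotypes, whereas TUBA1A, TUBB2A, TUBB2B and TUBB4A are best known from neurons. Cells also adjust tubulin mRNA to the amount of unpolymerised tubulin: the factor TTC5 recognises the first residues of the nascent protein on the ribosome and brings in the CCR4-NOT deadenylase, which starts decay of the mRNA.

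The coding ends of these genes are shown because they carry what separates the isotypes, and because shared sequence bears on how reads were divided among them. All sequences are from GENCODE release 29 (GRCh38), 1 principal transcript for each gene, 5′ to 3′, and all 10 genes were matched. The first 12 coding bases hold the start codon and, in capitals, the next 3 codons, which fall in the region read by TTC5. The alpha gene TUBA1B and the beta genes TUBB and TUBB6 begin as follows.
TUBA1B: atgCGTGAGTGC
TUBB: atgAGGGAAATC
TUBB6: atgAGGGAGATC
TUBA1A and TUBA1C had the same first 12 bases as TUBA1B, and TUBB4B had the same as TUBB. The last 60 coding bases, stop codon included, encode the tail. Capitals mark the codons GAA, GAG, GAC and GAT, which specify acidic residues and made up 10 or 11 of the 20 codons in each of the 7 ends shown.
TUBA4A: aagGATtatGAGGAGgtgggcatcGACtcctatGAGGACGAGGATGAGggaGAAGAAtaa
TUBB: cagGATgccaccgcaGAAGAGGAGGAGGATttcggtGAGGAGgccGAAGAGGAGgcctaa
TUBB2A: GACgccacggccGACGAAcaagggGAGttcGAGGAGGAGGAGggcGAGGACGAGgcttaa
TUBB2B: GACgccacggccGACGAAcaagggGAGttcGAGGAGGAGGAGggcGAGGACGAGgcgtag
TUBB4A: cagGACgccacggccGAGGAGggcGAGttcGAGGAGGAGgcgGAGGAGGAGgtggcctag
TUBB4B: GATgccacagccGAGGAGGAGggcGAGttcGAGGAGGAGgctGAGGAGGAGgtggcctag
TUBB6: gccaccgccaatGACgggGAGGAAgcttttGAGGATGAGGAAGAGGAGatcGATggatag
The ends of TUBB2A and TUBB2B were 96.7% identical. TUBA4A ends in GAA before its stop codon and so lacks the codon for the terminal tyrosine that is removed from and returned to other alpha-tubulins in cells. The end of TUBB6 was 58.0% to 61.9% identical to those of the other beta genes.

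Whole coding sequences were 84.4% to 97.2% identical between alpha genes (6 pairs) and 81.0% to 98.1% between beta genes (15 pairs). Of windows of 50 coding bases, 75.8% in TUBA1B, 58.6% in TUBA1A and 57.0% in TUBA1C occurred in a transcript of another gene in the same orientation, most often of one of the other 2. The share was 78.5% in TUBB2A and 79.8% in TUBB2B, each of which shared more windows with the other than with any further gene, and 33.4% in TUBB, whose copies lie in the pseudogenes TUBBP1 and TUBBP2 among others. It was 12.2% in TUBB4B, 11.7% in TUBB4A, 8.55% in TUBA4A and 1.55% in TUBB6. How the authors counted reads with several matches is not given in the sources used here, so the split of reads between TUBA1A, TUBA1B and TUBA1C and between TUBB2A and TUBB2B is uncertain. TUBB6 shared the smallest part of its coding sequence in the same orientation, but its exons overlap those of a gene on the opposite strand, described below.

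**Figure D1:**
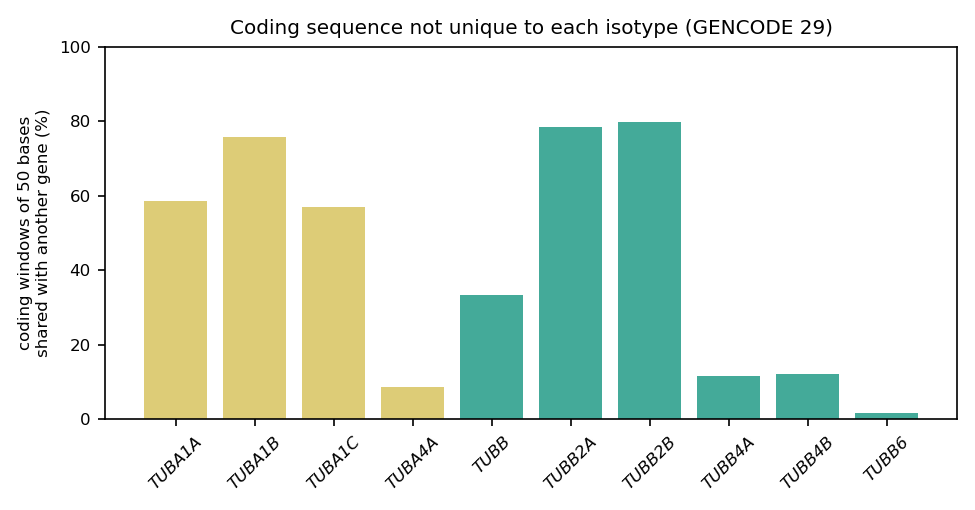
Bars give the percentage of 50-base windows of each isotype's coding sequence that occur in the same orientation in a transcript of another gene (GENCODE 29), with alpha genes in yellow and beta genes in green. TUBB2A and TUBB2B (78.5% and 79.8%) and TUBA1B (75.8%) were the least distinct and TUBB6 (1.55%) the most distinct.

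Libraries held 24226586 to 26966210 reads counted in genes, and mitochondrially encoded genes took 7.69% and 7.73% of them in DMSO and 9.53% and 9.61% in AMF. The 9 liver markers examined were all present, with a summed level of 497780 to 515530 normalized counts in DMSO and 368070 to 387850 in AMF. They did not move together. APOB, APOA1, AFP, TTR, SERPINA1 and TF were lower in both AMF libraries than in both DMSO libraries. HNF4A was higher (7044 and 7053 in DMSO, 13071 and 12569 in AMF), and the groups overlapped for ALB and FGB. Summed markers of other cell types in DMSO and AMF came to 195 to 211 and 25.8 to 36.2 for fibroblasts (6 genes), 221 to 246 and 132 to 152 for blood (4), 159 to 188 and 292 to 319 for endothelium (4), and 14.0 to 22.6 and 13.4 to 32.5 for neurons (3), with DCN, HBB and KDR at a mean of 0.232. The part of these shifts in the tubulin results was not tested. The 10 isotypes took 0.270% and 0.254% of the reads in DMSO replicates 1 and 2 and 0.252% and 0.253% in AMF replicates 1 and 2. Values below are normalized counts (reads divided by a size factor for each library), changes are differences of log2(normalized count + 1), AMF minus DMSO, and adjusted p-values are from limma-trend over 23828 genes with Benjamini-Hochberg adjustment. In bulk RNA, fewer cells of a kind and less RNA per cell cannot be told apart.

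The question was which isotypes differed between AMF and DMSO after 48 h. The most abundant isotype, TUBB, fell, whereas TUBB4B, TUBB6, TUBB4A and the alpha isotype TUBA1C rose. Of the 10 isotypes, 4 rose and 1 fell at an adjusted p under 0.05, beside 15.6% of all genes tested that rose and 16.2% that fell (31.8% in either direction). Of the 11137 genes whose mean reached 100, 54.7% were called, and 4 of the 9 isotypes at that level passed. Both AMF libraries lay above both DMSO libraries for 5 isotypes and below them for 3, beside 33.8% and 29.7% of all genes tested (63.4% without overlap in either direction). The median change of the isotypes was 0.069, beside 0.036 over all genes tested. The size of the changes differed widely among isotypes: 8 of them changed by less than 0.2 in either direction, and TUBB6 and TUBB4A by more than 1. With AMF replicate 1 or 2 left out, the AMF group had 1 library, and the spread within groups came from the DMSO libraries alone. No call below, those of the other lists included, held there in limma-trend. The changes of the called isotypes without AMF replicates 1 and 2 kept their direction. They were -0.197 and -0.192 for TUBB, 0.186 and 0.175 for TUBA1C, and 0.184 and 0.158 for TUBB4B. For TUBB6 they were 1.087 and 0.974, and for TUBB4A 1.959 and 1.585. With voom, a test on the recovered reads, TUBB6 was the 1 isotype called without AMF replicate 1 (adjusted p = 0.0421) and without AMF replicate 2 (0.0428), when 1379 and 1315 genes were called in all.

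**Figure D2:**
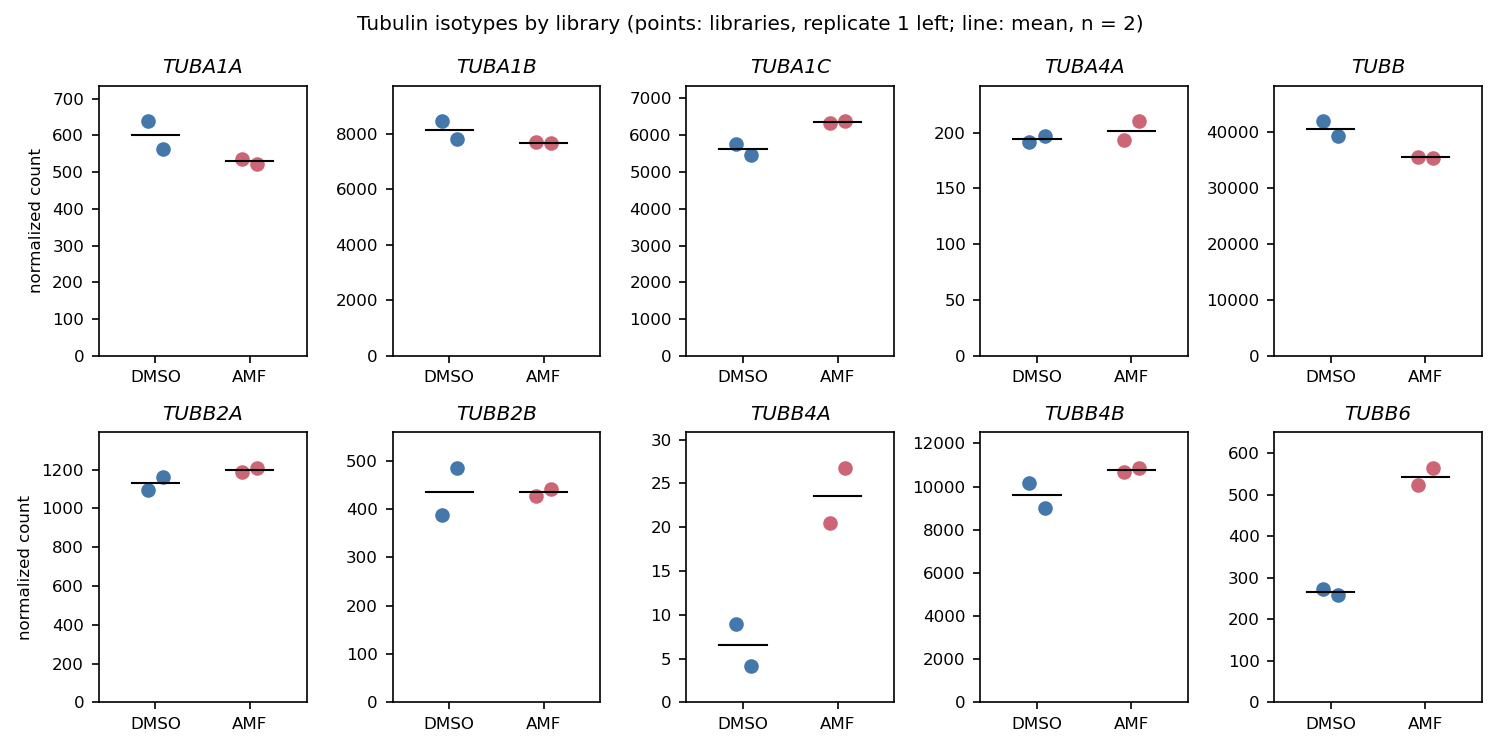
Normalized counts of each isotype on the vertical axis, from 0 and on a scale of its own, in the 2 DMSO (blue) and 2 AMF (red) libraries, with the mean of each group as a line. The AMF points of TUBB lie below both DMSO points, those of TUBA1C, TUBB4B, TUBB4A and TUBB6 above, and the groups of TUBA4A and TUBB2B overlap.

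TUBB, the class I beta-tubulin of most dividing cells, ranked as number 40 of all genes by mean normalized count. It stood at 41874 and 39265 in DMSO replicates 1 and 2 and at 35487 and 35365 in AMF replicates 1 and 2. Both AMF libraries were lower than both DMSO libraries, and the AMF libraries lay much closer together (SD 86.0) than the DMSO libraries (SD 1845). TUBB fell from a mean of 40570 to one of 35426, a ratio of 0.873 and a log2 change of -0.19 (SE 0.0374, 95% interval -0.28 to -0.11, limma adjusted p = 9.28e-04). The gap between the DMSO libraries was 0.09 on the same scale. The change was -0.15 without DMSO replicate 1 and -0.24 without DMSO replicate 2, and both passed.

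TUBB4B, the second beta isotype by level and a constituent of both cytoplasmic microtubules and cilia, moved the other way. It had 10151 and 9021 in the DMSO libraries and 10679 and 10871 in the AMF libraries. The groups did not overlap, but DMSO replicate 1 was nearer to AMF replicate 1 than to DMSO replicate 2. TUBB4B rose from 9586 ± 799 to 10775 ± 136 (SD, n = 2 each), a log2 change of 0.17 (SE 0.0503, 95% interval 0.06 to 0.28, limma adjusted p = 0.0171), as large as the gap of 0.17 between the DMSO libraries. The change was 0.26 without DMSO replicate 1 and 0.09 without DMSO replicate 2, and in the latter case the call ended with limma-trend but not with voom. With 1 DMSO library left, here and for the other isotypes, the spread within groups came from the AMF libraries alone. A pass in such a fit therefore does not show that a call holds. The call of TUBB4B also ended with a pseudocount of 0.1 (limma adjusted p = 0.0558) and with no filter on low values (0.0644).

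TUBB6, the class V beta-tubulin, had the largest change among the isotypes with a mean of at least 100. Its values were 273 and 259 in DMSO and 523 and 566 in AMF. Each AMF library thus held more than either DMSO library by a margin far wider than the gaps within the groups. TUBB6 rose from 266 ± 10.0 to 544 ± 30.2 (SD, n = 2 each), a ratio of 2.05 and a log2 change of 1.03 (SE 0.0958, 95% interval 0.82 to 1.24, limma adjusted p = 1.22e-06). Leaving out each library in turn gave changes from 0.97 to 1.09. Its exons overlap 837 bases of AFG3L2, a mitochondrial protease gene on the opposite strand, in libraries that do not keep strand. AFG3L2 stood at 1517 and 1503 in DMSO and at 1570 and 1562 in AMF, and did not pass (adjusted p = 0.543).

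TUBB4A, a beta isotype of oligodendrocytes and neurons, was close to silent in these cells. It had 9 and 4 reads in the DMSO libraries and 22 and 26 reads in the AMF libraries. In normalized counts this was 8.997 and 4.107 against 20.4 and 26.8, with no overlap. TUBB4A rose by 1.77 (SE 0.491, 95% interval 0.72 to 2.83, limma adjusted p = 0.0121), on a scale that understates the change of genes with few reads. Its call ended without DMSO replicate 1 or 2 (adjusted p = 0.0614 and 0.142), when the change was 2.26 and 1.29, and with voom it held without replicate 1 (0.0458) but not without replicate 2 (0.131). Exons of AC010503.1 and AC010503.2 lie opposite those of TUBB4A (520 and 296 bases), and neither is a row of the table.

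TUBB2A and TUBB2B, close copies that lie near each other on chromosome 6, did not pass. TUBB2A had 1097 and 1162 in DMSO and 1189 and 1209 in AMF, a log2 change of 0.09 (95% interval -0.05 to 0.22, limma adjusted p = 0.345). Its AMF libraries were both higher than DMSO replicate 2, the nearer DMSO library, by less than the gap between the DMSO libraries. TUBB2B had 387 and 486 in DMSO, the widest relative gap within a group of any isotype above 100, and 427 and 442 in AMF, which fell between them. Its log2 change was 0.003 (95% interval -0.23 to 0.23, limma adjusted p = 0.989). The interval of TUBB2B leaves room for a change as large as that of TUBB or TUBB4B in either direction.

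Among the alpha isotypes, TUBA1C was the one that passed the test. It had 5760 and 5462 in the DMSO libraries and 6331 and 6379 in the AMF libraries. Both AMF libraries were higher than both DMSO libraries. TUBA1C rose from 5611 ± 211 to 6355 ± 33.8 (SD, n = 2 each), a log2 change of 0.18 (SE 0.0442, 95% interval 0.09 to 0.27, limma adjusted p = 0.00562). The change was 0.22 without DMSO replicate 1 and 0.14 without DMSO replicate 2, and the latter did not pass with limma-trend (adjusted p = 0.0749) but did with voom (0.00368).

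TUBA1B, the most abundant alpha isotype, had 8456 and 7814 in DMSO and 7716 and 7654 in AMF. The AMF libraries were both lower, but by little in relation to DMSO replicate 2. Its log2 change was -0.08 (95% interval -0.18 to 0.02, limma adjusted p = 0.204), with -0.02 without DMSO replicate 1 and -0.14 without DMSO replicate 2. TUBA1A, the alpha isotype of developing neurons, had 639 and 563 in DMSO and 537 and 522 in AMF. Its log2 change was -0.18 (95% interval -0.36 to 0.01, limma adjusted p = 0.14), close in size to that of TUBB but with a wider interval, and -0.09 without DMSO replicate 1 (adjusted p = 0.449, and 0.64 with voom). DMSO replicate 1 was the highest library for both genes, and the gap between the DMSO libraries was 0.18 in TUBA1A and 0.11 in TUBA1B. Without DMSO replicate 2, voom called both as lower (-0.27 with adjusted p = 0.0419 for TUBA1A and -0.14 with adjusted p = 8.96e-04 for TUBA1B), whereas limma-trend called neither (0.0953 and 0.0728). Exons of TUBA1A and TUBA1C, which lie on opposite strands of chromosome 12, overlap by 490 bases.

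TUBA4A, the alpha isotype without the terminal tyrosine codon, had 192 and 197 in DMSO and 193 and 210 in AMF, so the groups overlapped. Its log2 change was 0.05 (95% interval -0.22 to 0.32, limma adjusted p = 0.806). Its exons overlap 627 bases of the kinase gene STK16 on the opposite strand, which rose by 0.26 (adjusted p = 0.0131), and 112 bases of TUBA4B, which rose from 11 and 8 reads in DMSO to 30 and 23 in AMF (adjusted p = 0.0221).

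**Figure D3:**
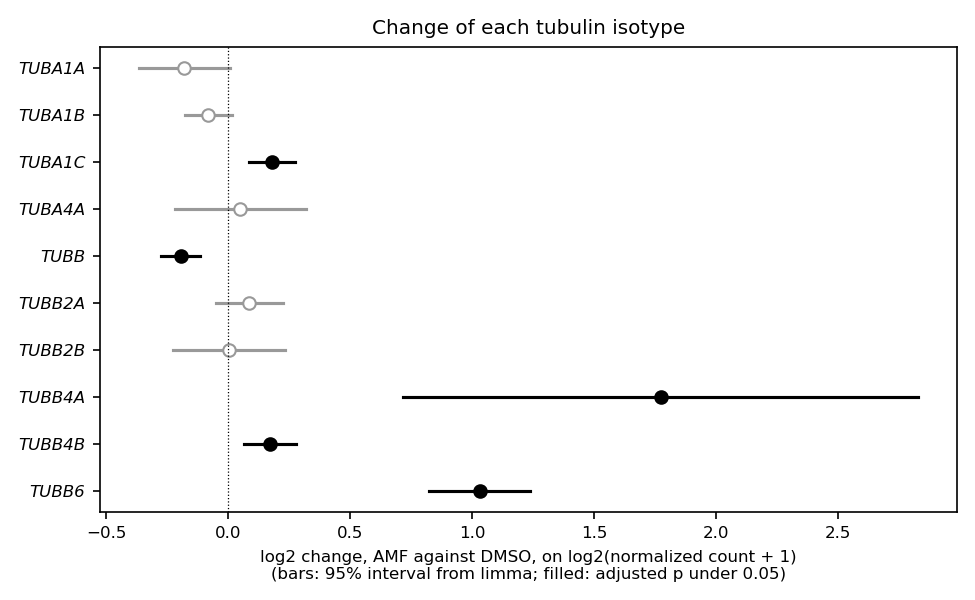
Difference of mean log2(normalized count + 1) between AMF and DMSO for each isotype, with 95% intervals from limma and filled points for an adjusted p under 0.05. TUBB (-0.19) is the filled point below 0, TUBA1C (0.18) and TUBB4B (0.17) lie just above it, and TUBB6 (1.03) and TUBB4A (1.77) stand apart with intervals of very different width.

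Levels of different isotypes were compared as normalized counts per kilobase of the principal transcript. TUBB led with 15195 ± 691 in DMSO and 13268 ± 32.2 in AMF (SD, n = 2), followed by TUBB4B with 5856 ± 488 and 6582 ± 82.9, TUBA1B with 4999.9 ± 279 and 4724 ± 27.1, TUBA1C with 1870 ± 70.2 and 2118 ± 11.3, and TUBB2A with 708 ± 29.1 and 752 ± 9.24. The ranges of these 5 over the 4 libraries did not overlap. Below them, TUBA1A stood at 314 ± 28.1 in DMSO and 277 ± 5.33 in AMF, TUBB2B at 216 ± 34.6 and 215 ± 5.18, and TUBB6 at 129 ± 4.86 and 264 ± 14.7. TUBB6 was thus below both others in DMSO, above TUBB2B in AMF and, with 253 and 274 per kilobase in the AMF libraries, not apart from TUBA1A there (280 and 273). With the length of all annotated exons in place of 1 transcript, TUBB6 (132 ± 7.35 in AMF) stayed below TUBB2B (198 ± 4.77) in both groups. By mean, TUBB2B (199 ± 31.8 in DMSO) then lay above TUBA1A (176 ± 15.7 in DMSO and 155 ± 2.98 in AMF). TUBB6, with 127 and 137 in the AMF libraries, lay below TUBA1A there (157 and 153). The order of these 3 genes thus rests on the length used. TUBA4A (90.0 ± 1.70 and 93.3 ± 5.56) and TUBB4A (2.57 ± 1.35 and 9.25 ± 1.76) were lowest.

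The summed pools differed between the groups by no more than the DMSO libraries did between themselves. The alpha pool came to 7539 and 7008 per kilobase in DMSO and to 7222 and 7200 in AMF, so the groups overlapped and the log2 difference was -0.01 (exact permutation test over libraries, two-sided, p = 1). The beta pool came to 22899 and 21313 in DMSO and to 21033 and 21148 in AMF, lower in both AMF libraries by a log2 difference of -0.07, less than the gap of 0.10 between the DMSO libraries (exact permutation p = 0.333, the smallest that 2 against 2 libraries allow). The beta pool difference was -0.0151 without DMSO replicate 1 and -0.119 without DMSO replicate 2. The ratio of the beta to the alpha pool was 3.04 in both DMSO libraries and 2.91 and 2.94 in AMF. That ratio compares the reads that were counted. How reads with several matches were treated is not given, and more of the alpha coding sequence is shared between genes. The part of that sharing in the ratio was not tested.

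Within each pool the shares shifted from the leading isotype to the next. TUBB held 68.5% and 69.0% of the beta pool in DMSO replicates 1 and 2 and 63.2% and 62.6% in AMF replicates 1 and 2, a difference of -5.83 percentage points. TUBB4B held 27.1% and 25.9% in DMSO and 31.0% and 31.4% in AMF, a difference of 4.74 points. TUBB6 went from 0.577% and 0.588% to 1.20% and 1.30%. In the alpha pool, TUBA1B held 68.9% and 68.5% in DMSO and 65.7% and 65.3% in AMF, a difference of -3.23 points, and TUBA1C held 25.5% and 26.0% in DMSO and 29.2% and 29.5% in AMF, a difference of 3.65 points. For 8 of the 10 shares the groups did not overlap, each with an exact permutation p of 0.333 (0.417 adjusted over the 10 shares), and TUBA4A and TUBB2B overlapped. That p is the smallest that 2 against 2 libraries allow. The normalized counts of 63.4% of all genes tested did not overlap either, so the number of such shares is no finding by itself. Shares within a pool are not independent, since they add up to 100%.

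**Figure D4:**
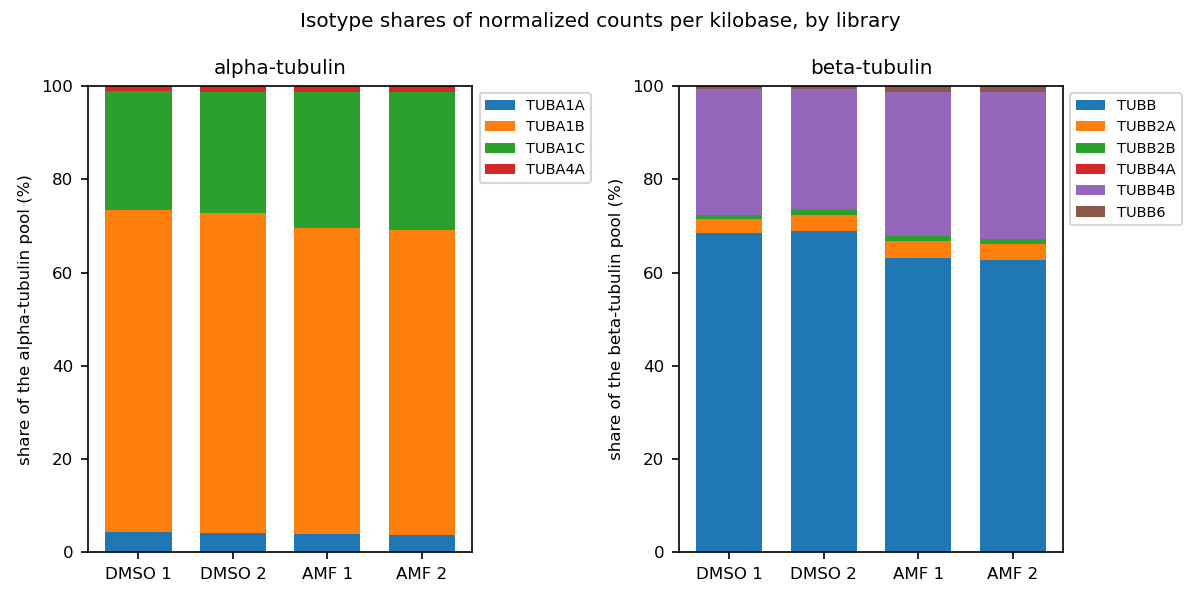
Stacked bars give the share of each isotype in the alpha-tubulin pool (left) and beta-tubulin pool (right) of each library, in percent of normalized counts per kilobase. In both pools the leading isotype (TUBA1B or TUBB) takes a smaller share in the AMF libraries, and the next isotype (TUBA1C or TUBB4B) a larger one.

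Of 11 tested tubulin genes beyond the 10 isotypes, 2 rose, 2 fell and 7 did not pass, near the background of 15.6% of all genes that rose and 16.2% that fell. TUBG1, the gamma-tubulin that nucleates microtubules, rose from 4068 and 3897 in DMSO to 4850 and 4651 in AMF (0.25, limma adjusted p = 7.10e-04), and the alpha-like gene TUBAL3 rose from 17.0 and 11.3 to 52.9 and 70.1 (2.06). The platelet beta-tubulin TUBB1 fell from 98.96 and 70.84 to 40.9 and 37.1 (-1.09), and the centriolar delta-tubulin TUBD1 from 375 and 400.4 to 295 and 314 (-0.35). Beyond the 10 isotypes the table held 34 rows with symbols of this family, these 11 genes, pseudogenes and gamma-complex proteins included. TUBG1 and TUBGCP2, a subunit of the gamma-tubulin ring complex, had the highest means of the 34. TUBGCP2 stood at 3074 ± 37.9 in DMSO and 3309 ± 34.2 in AMF (limma adjusted p = 0.11).

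Among genes that fold tubulin, those of the chaperonin that passed had risen, and the cofactors went both ways. Of 15 genes of the CCT chaperonin, which folds newly made tubulin and actin, and of its partners prefoldin and PDCL3, 8 rose, 0 fell and 7 did not pass, with a median change of 0.18. All 15 had a mean of at least 100, a level at which 54.7% of genes were called, so the number that passed was near the background. The prefoldin subunits PFDN2 (from 1037 ± 38.4 to 1553 ± 44.8, log2 change 0.58) and PFDN6 (0.38) rose by most. A list of 7 genes held TBCA, TBCB, TBCC, TBCD and ARL2, which act on tubulin after CCT, the cofactor-like TBCEL, and TBCK, which shares the name but is a kinase-like protein with a TBC domain. Of these 7, 2 rose and 2 fell. All 7 had a mean of at least 100, and the number that passed was near the 54.7% called at that level. TBCA, which holds beta-tubulin, rose by 0.33 and the GTPase ARL2 by 0.52, whereas TBCC (-0.32) and TBCD (-0.22) fell. Of 13 genes of the decay of tubulin mRNA described above, most of them CCR4-NOT subunits that act on many mRNAs, 0 rose, 6 fell and 7 did not pass, with a median of -0.19. Their means were also all at least 100, and the number that passed was no higher than the 54.7% called at that level. TTC5 itself stood at 693 ± 17.0 in DMSO and 684 ± 10.8 in AMF (-0.02, adjusted p = 0.88), while the deadenylase subunit CNOT8 fell from 1587 ± 33.1 to 865 ± 4.95 (-0.88) and SCAPER, which links TTC5 to the deadenylase, from 339 ± 1.38 to 264 ± 6.85 (-0.36).

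Genes of microtubule nucleation, modification and dynamics that passed went both ways, and the counts are to be read against the 31.8% called among all genes and the 54.7% called among those whose mean reached 100. Of 18 genes of the gamma-tubulin ring complex and augmin, 1 rose and 5 fell. All of them but HAUS7 (mean 14.6) had a mean of at least 100, and the share called was below the 54.7% at that level. The centrosomal scaffold CDK5RAP2 rose by 0.56, and the augmin subunit HAUS5 (-0.63) and TUBGCP3 (-0.36) fell. Of 24 genes for enzymes that modify tubulin, mostly at the tail, and for their partners, 5 rose and 7 fell. ATAT1, HDAC6 and SIRT2, which act on a lysine inside the microtubule and not on the tail, were among the 12 that did not pass. TTLL1, a polyglutamylase, rose from 24.4 ± 7.62 to 64.3 ± 8.17 (1.39) and TTLL12 by 0.60, and the tyrosine-removing enzyme VASH2 (-0.71) and its partner CCDC23, the older symbol of SVBP (-0.81), fell. Of 25 genes for proteins that bind the lattice, the ends or free tubulin, 8 rose, 11 fell and 6 did not pass. That share called was above the 54.7%, although some of the 25 had a mean under 100. STMN1, the stathmin that sequesters free tubulin dimers, fell from 6958 and 6708 to 3461 and 3308 (-1.01, SE 0.0463, limma adjusted p = 9.23e-10), and STMN3 by 0.64, whereas the lattice-binding proteins MAP2 (1.604) and MAP1A (1.543) rose from means of 12.7 and 17.2 to means of 40.5 and 52.8. Of 10 severing and depolymerising proteins, 2 rose, 5 fell and 3 did not pass, again a share called above the 54.7%. Those that fell included FIGNL1 (-0.84) and the kinesin KIF18A (-0.72), and the katanin subunit KATNAL1 (0.60) was among those that rose. Whether either list departs from the background was not tested. Over all these lists 28 of 123 genes rose and 38 fell, with a median of -0.06. The share called was above the 31.8% of all genes tested and near the 54.7% of genes at a mean of at least 100. Some of the 123 had lower means, so neither figure covers a like set of genes.

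**Figure D5:**
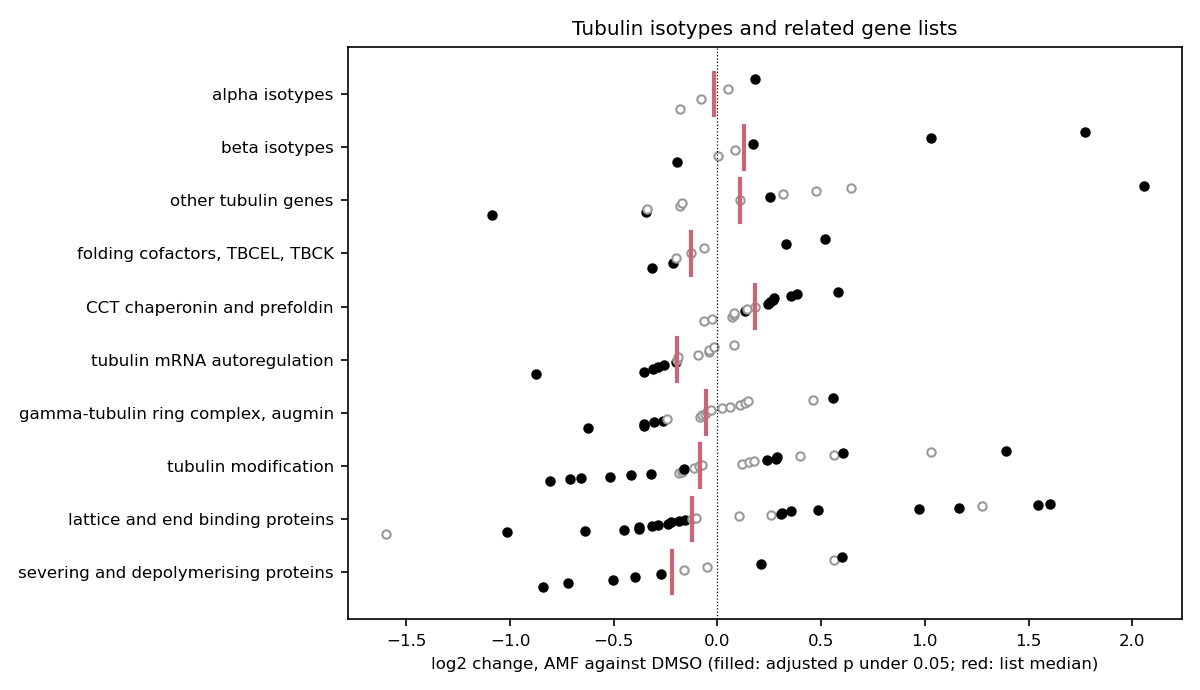
Log2 change of every tested gene of the isotype lists and of the other lists, AMF against DMSO, with filled points for an adjusted p under 0.05 and a red line at each list's median. The CCT chaperonin and prefoldin list has 8 filled points above 0 and 0 below, and the mRNA autoregulation list 0 above and 6 below.

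By the distance between centred log2 values over the 4 libraries, the genes most like TUBA1B among 11137 with a mean of at least 100 were CREB3L2 (0.0115), FBL (0.0149) and IMP3 (0.0155). Those most like TUBB were GSK3B (0.00934), RQCD1 (0.0102) and TAF1 (0.0111), with changes of -0.19, -0.20 and -0.20. RQCD1 is the older symbol of CNOT9, a CCR4-NOT subunit of the decay list above. The likeness rests on 4 libraries and is a description only.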

How the data were processed

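Per the labels' protocols, the libraries came from poly(A) RNA and a non-directional kit, so strand is lost. STAR 2.7.0, featureCounts and hg19 stand in the submitters' processing notes, while annotation, filters and scaling were not given in the sources used here. Values as the authors deposited them are log2 values with a floor of 6.01, not the scale first planned for. Judged by the values alone, they are a variance-stabilized form of size-factor-scaled counts. Each column name matched 1 sample (0 columns belonged to none). A deposited value V was turned back into a normalized count, with f for the floor, as 2^V - 2·2^f + 2^(2f - V), and 100% of values were then whole multiples (to 0.01 reads) of what 1 read is worth in that library.

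The test was limma-trend (limma 3.58.1, R 4.3.3) on log2(normalized count + 1), without other terms than group, for the 23828 genes of mean 1 or more in the 4 libraries. It was tested on simulated data. Alternatives were the deposited values, a pseudocount of 0.1, no filter, a mean minimum of 10, library totals, voom on the recovered reads, the replicate number as a block, each library left out and, added after seeing the data, the length of all exons. Members and lists were chosen with earlier results of these data known. Named were all 10 isotypes and, from each list, the 2 largest rises and falls among called genes averaging 10 or more. TTC5 and some of the overlapping genes (AFG3L2, STK16, TUBA4B) were named outside that rule after their values were seen. Exons of TUBB also overlap 538 bases of AL662797.1 on the opposite strand, and those of TUBB4B 124 bases of FAM166A. The same holds for TUBA1B (1309 bases of AC011603.2), TUBA1C (666 of AC125611.3) and TUBB2B (174 of PSMG4). CNOT9, SVBP and CSAP were matched by RefSeq synonyms. TUBA3C, TBCE and AGBL4 were not analysed here. Some coding ends and 1 gene that the rule names are not reported here. GENCODE 29, the source of sequences and lengths, uses a different build from hg19, and coordinates are therefore left out. Figures were drawn with matplotlib 3.10.9.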

Additional observations from a re-analysis of the deposited data

How the results depend on the processing

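With 1 library left out, the number of isotypes called with limma-trend (5) ran from 0 (without AMF replicate 1 or 2) to 4 (without DMSO replicate 1), with 2 called without DMSO replicate 2. With voom the number ran from 1 (without AMF replicate 1 or 2) to 6. Over all genes (7578) it ran from 0 to 3531 with limma-trend, and voom called 1379 and 1315 without AMF replicates 1 and 2. Over the other lists (66) it ran from 0 to 35, and with voom it was 13 and 12 without AMF replicates 1 and 2. With all libraries, 4 isotypes were called with a pseudocount of 0.1 or no filter, where TUBB4B missed, and 5 in the other settings, the replicate block included (8157 genes in all, 67 on the lists). Same-numbered samples did not deviate together (r = 0.0238 across 11137 genes), and the block changed no isotype's call. Leaving out a library moved the change of TUBA4A between -0.01011 and 0.1111 and that of TUBB2B between -0.1602 and 0.1671. Both were below 0 without AMF replicate 2 (with voom -0.01021 and -0.01939), as was TUBB2B without DMSO replicate 1 (with voom -0.1616).

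The alpha pool difference was 0.0107 with library totals, 0.0235 without division by length and 0.00704 with all exons, and ran from -0.0642 to 0.0412 as libraries were left out. Without division by length the differences in share were -3.91 points for TUBA1B, 4.42 for TUBA1C, -4.84 for TUBB, 3.84 for TUBB4B and 0.613 for TUBB6. With all exons they were -3.63 for TUBA1B, 4.16 for TUBA1C and 0.424 for TUBB6. As libraries were left out, the difference in share ran from -0.00755 to 0.116 for TUBA4A and from -0.108 to 0.184 for TUBB2B. The causes were not tested. Depth limits TUBB4A most, with 4 to 26 reads a library.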
